A study of Mus musculus with 12 samples.

Results

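The second day after loss of a mutant oncogene was examined in mouse lung tumors, by setting 4 tumor samples taken 48 h after the oncogene was switched off against 4 taken 24 h after. These 8 arrays are part of a series of 12, whose other 4 arrays hold tumors with the oncogene still on. All were tumors microdissected from the lungs of FVB/SV129 mice aged 19 weeks and snap-frozen. The mutant oncogene is common to all groups, and the sources used here do not give how it was switched. Biotinylated cRNA of each sample was hybridised to its own array on Illumina mouse BeadChips. The second BeadChip held all 4 arrays at 24 h and 48 h replicates 3 and 4, while the first held 48 h replicates 1 and 2 and the 4 arrays with the oncogene on. The labels do not say whether the samples of a group came from different mice, so the p-values below speak only of how these samples spread. Of 45281 probes, 20294 (44.8%) had a detection p-value below 0.05 on at least 4 of the 8 arrays, and they named 11037 genes.

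An oncogene of this kind signals through the ERK kinase cascade, and the cells that it drives hold its feedback inhibitors and its transcription factors at a high level. Tumors of the distal lung usually arise from alveolar type 2 cells, which make surfactant, or from club cells, the secretory cells of the small airways. When a driving oncogene is lost, tumor cells can leave the cell cycle or die, and macrophages take up the dead cells. Bulk tumor RNA also holds airway epithelium, vessels, fibroblasts and blood cells, and in such RNA fewer cells of a type and less RNA per cell cannot be told apart.

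Values below are log2 levels, the log2 of the background-corrected and quantile-normalised intensity, on which undetected probes lie near 4 to 4.5. Differences are 48 h minus 24 h on that scale, with the standard error of the limma fit over 4 and 4 arrays, and a gene was called when its p-value, adjusted by Benjamini-Hochberg over all probes tested, was below 0.05. Lung markers were high in both groups. Surfactant protein C (Sftpc), a type 2 cell protein, lay at 14.28, 14.19, 14.25 and 14.35 at 24 h and at 14.13, 14.35, 14.21 and 14.40 at 48 h, and secretoglobin Scgb1a1, the club cell protein, lay at 14.37 to 14.72 and 14.54 to 14.78. The type 1 cell receptor Ager lay at 12.95 to 13.61 and 13.02 to 13.34. None of these 3 genes passed the test, with adjusted p between 0.476 and 0.981.

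Several arrays stood apart. The 24 h replicate 4 was the only one of the 8 off arrays with Xist, the RNA of the inactive X chromosome of females, near the undetected level, at 4.2 against 10.48 to 11.36 on the other 7. The 48 h replicates 2 and 4 carried heart and skeletal muscle transcripts. The mean level of all 8 muscle markers tested was 7.08, 10.05, 5.65 and 10.17 in 48 h replicates 1 to 4, 5.80 to 6.69 at 24 h and 5.35 to 9.79 with the oncogene on, where the highest array was thus close to these 2. Myoglobin (Mb) lay at 6.98, 9.88, 5.50 and 12.61 at 48 h and at 4.62, 5.0, 4.70 and 6.11 at 24 h, and none of the 8 markers passed limma's test (2 higher at an unadjusted p below 0.05), while 4 were called higher without 48 h replicate 3. The 48 h replicate 3 had the highest levels of ERK target genes at 48 h, as given below. Brightness did not separate the groups: mean raw intensity was 304 ± 21.1 (SD, n = 4) at 24 h and 280 ± 31.7 (SD, n = 4) at 48 h, with p = 0.286 in a two-sided exact permutation test. The share of probes detected was 44.5% ± 1.51 (SD, n = 4) and 44.4% ± 0.507 (SD, n = 4), with an exact permutation p = 0.943.

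Between 24 h and 48 h, 3032 of 11037 genes (27.5%) were called, 1498 higher at 48 h (13.6%) and 1534 lower (13.9%). Over probes, the count was 5702 of 20294 (28.1%). The changes were mostly small, the median called gene differing by 0.56 on the log2 scale with a median standard error of 0.14, and the median over all genes tested was 0.02. At least 2-fold changes (3.78% of genes) were more often falls, with 267 genes lower and 150 higher. Changes of at least 4-fold were found in 29 genes that fell and 9 that rose. In 2442 of the called genes (80.5%) the 48 h range and the 24 h range were wholly apart, as was so in 27.6% of all genes tested. With BeadChip as a term in the model, the difference rests on 48 h replicates 3 and 4 against the 24 h arrays beside them, and 721 genes (6.53%) were called, 271 higher (2.46%) and 450 lower (4.08%). Of the 3032 genes, 710 were among these, and all 3032 had the same sign there, with a median size of 0.48; the 2 fits share arrays. Of the called genes named below, 72 of 156 stayed called in that model and none changed sign. Leaving out 48 h replicates 2 and 4, an alternative chosen after the muscle transcripts were seen, left 1756 called genes (15.9%), 866 higher (7.85%) and 890 lower (8.06%), of which 1599 were among the 3032. Without 48 h replicate 3 the count was 3079, and without 24 h replicate 4 it was 2434. Without 48 h replicate 2 alone it was 1987. In the gene lists below, counts of 1 or 2 calls that moved by 1 when an array was left out are not followed one by one. Counts of list members stand beside the shares of all genes, 13.6% higher and 13.9% lower, and 6.53% called with BeadChip in the model. The count of higher genes fell to 936 without 48 h replicate 2 and to 948 without 48 h replicate 1.

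**Figure D1:**
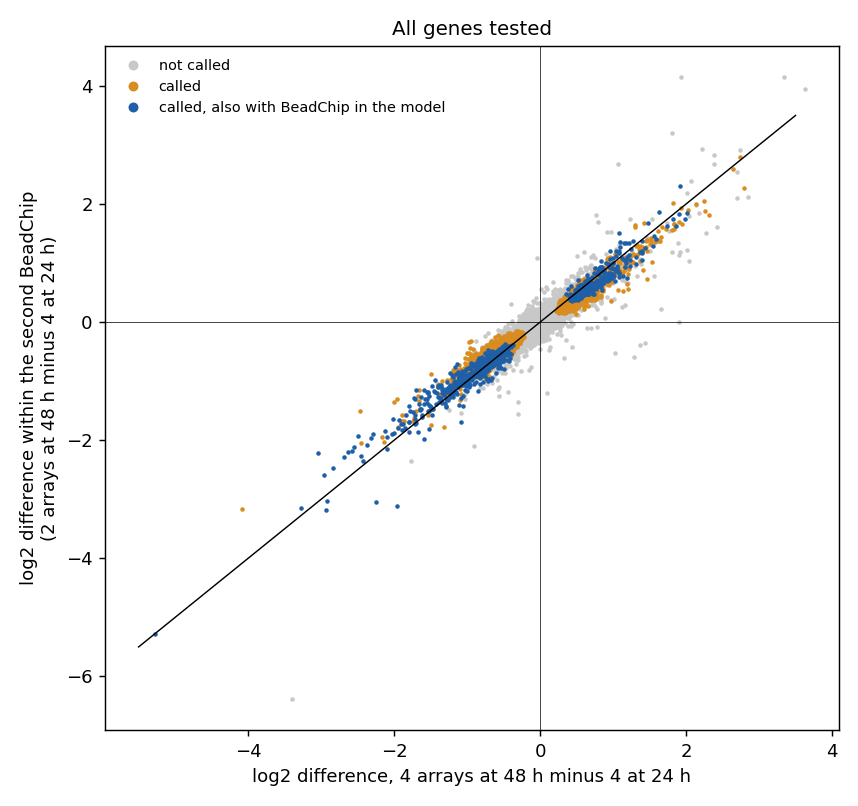
Each point is a gene, with its log2 difference over all 4 and 4 arrays on the x axis and its difference within the second BeadChip (2 arrays at 48 h minus 4 at 24 h) on the y axis. The line marks equal values. Called genes are orange, and the 710 also called with BeadChip in the model are blue; none of the 3032 called genes lies across 0 on the y axis from its side of the x axis.

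The deepest fall was that of BC018473, a gene whose product is not described in the tables used. It lay at 8.72, 10.58, 9.58 and 9.23 at 24 h and was not well above background on any array at 48 h, at 4.21, 4.33, 4.26 and 4.24, nor with the oncogene on, at 4.25 to 4.27. Its level at 24 h was at least 27.2-fold higher than at 48 h (adjusted p = 3.38e-06). Its 4 values at 24 h thus overlapped neither of the other groups. It passed the detection filter only through its 24 h arrays. The filter thus favoured a gap from 48 h, and the gap is no further support for the fall. Mfsd2a, a transporter of lysophospholipids, lay at 9.18, 9.18, 9.0 and 9.15 at 24 h and at 6.47, 6.39, 6.0 and 5.91 at 48 h. It fell by 2.93 ± 0.23 (adjusted p = 7.16e-05), and the difference was -3.17 within the second BeadChip (adjusted p = 0.00034 with BeadChip in the model). Unlike those of BC018473, its levels with the oncogene on (9.09 to 10.35) were near those at 24 h. Every array at 48 h was more than 2 units below every array at 24 h.

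Lipf, the gastric lipase, lay at 8.15, 7.78, 8.05 and 7.57 at 24 h and at 5.67, 4.51, 5.05 and 4.66 at 48 h. It fell by 2.92 ± 0.29 (adjusted p = 0.000227), and it was detected on 4 arrays at 24 h and 2 at 48 h. Hpgd, which inactivates prostaglandins, fell by 2.55 ± 0.30 (adjusted p = 0.000393), with a range of 8.03 to 9.09 at 24 h and of 5.45 to 7.0 at 48 h. Pcolce2, an enhancer of procollagen processing, fell by 2.57 ± 0.37 (adjusted p = 0.00108). The eosinophil-associated ribonuclease Ear10 lay at 10.35, 10.09, 7.62 and 10.10 at 24 h and at 4.79, 4.27, 5.46 and 7.27 at 48 h, and it fell by 4.09 ± 0.93 (adjusted p = 0.00792). Its highest value at 48 h, on replicate 4, was below its lowest at 24 h, on replicate 3. Sirpb1a, a signal-regulatory receptor of myeloid cells, fell by 3.27 ± 0.36 (adjusted p = 0.000287), and Chil4, a chitinase-like protein of macrophages and epithelium, fell by 3.05 ± 0.54 (adjusted p = 0.00262). Ear10, Sirpb1a and Chil4 belong to families of near-identical genes, whose transcripts may share a probe's signal.

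The largest rise was that of Hspa1a. This gene, an inducible chaperone of the heat shock response with a near-identical copy, lay at 6.99, 5.58, 6.40 and 6.83 at 24 h and at 7.82, 10.43, 8.21 and 10.29 at 48 h. It rose by 2.74 ± 0.62 (adjusted p = 0.00758); without 48 h replicates 2 and 4, the 2 arrays with muscle transcripts, the difference was 1.56 (adjusted p = 0.0673). Zbtb16, a transcription factor induced by glucocorticoids, rose by 2.32 ± 0.46 (adjusted p = 0.00434), with a range of 4.51 to 4.94 at 24 h and of 6.16 to 8.41 at 48 h, and the difference was 1.71 without these arrays (adjusted p = 0.0235). Plin4, a coat protein of lipid droplets, rose by 2.26 ± 0.47 (adjusted p = 0.00535). The amylase gene Amy2a5 lay at 5.94, 6.51, 6.29 and 6.06 at 24 h and at 8.46, 8.42, 7.42 and 8.47 at 48 h, and it rose by 1.99 ± 0.23 (adjusted p = 0.000337). It is one of several close amylase copies. Of the 12 largest rises, 3 were also called with BeadChip in the model, Amy2a5 (adjusted p = 0.00641), Cmya5 (0.0467) and Cfap65 (0.0492).

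Cdhr3, Rsph4a, Cfap65 and Tekt1, of which the last 3 are parts of motile cilia and the first is a cadherin of ciliated cells, rose by 2.14, 2.03, 2.01 and 1.95 (adjusted p from 0.00397 to 0.0103). Kndc1, a guanine nucleotide exchange factor, rose by 2.25 ± 0.48 (adjusted p = 0.00571). Hrc and Cmya5 are proteins of striated muscle, and both were highest in 48 h replicates 2 and 4. Hrc lay at 6.26, 7.71, 5.48 and 8.48 at 48 h against 4.79 to 5.24 at 24 h, and its call was lost when 24 h replicates 1, 2, 3 or 4 or 48 h replicates 2 or 4 were left out. Epm2aip1, whose product binds laforin, rose by 2.65 ± 0.74 (adjusted p = 0.0197), from 7.98, 4.44, 7.81 and 4.44 to 8.87, 8.86, 9.0 and 8.53. At 24 h it was not detected on replicates 2 and 4, and its call was lost without 24 h replicate 4. One other of its 5 probes tested was called in the same direction.

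**Figure D2:**
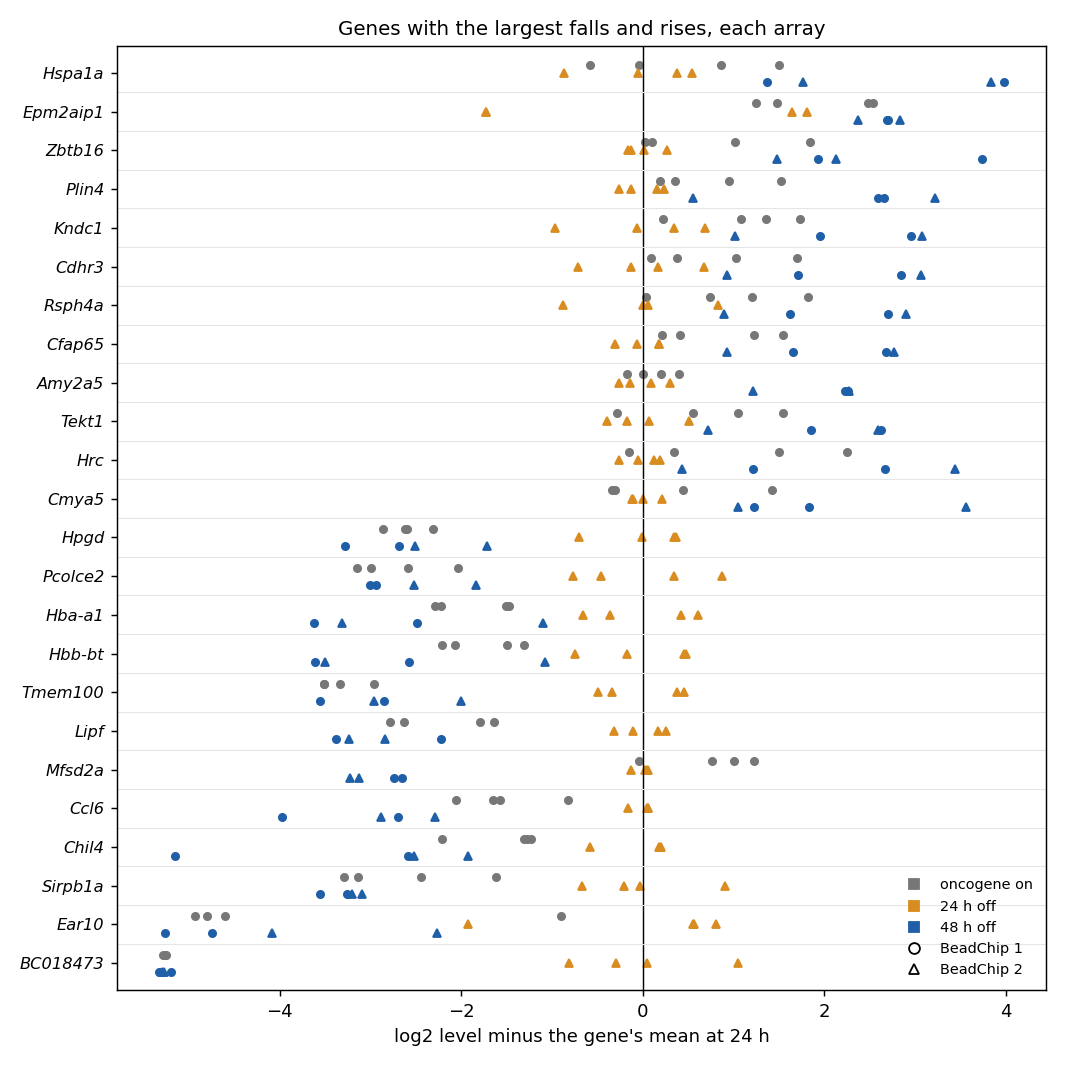
Log2 level of each array minus the gene's mean at 24 h (x axis), for the 12 genes with the largest falls and the 12 with the largest rises among called genes without overlap. Points are single arrays, coloured by group and shaped by BeadChip; in most of the falling genes the arrays with the oncogene on lie with those at 48 h, and Mfsd2a is the exception.

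Genes of cell division fell as a group. Of 20 mitosis genes tested, 16 were called lower at 48 h and none higher (0 at an unadjusted p below 0.05), against backgrounds of 13.9% and 13.6% of all genes, and their median difference was -0.75 against 0.02. Over the list, the mean level was 6.95, 6.77, 7.09 and 6.85 at 24 h, 6.25, 6.35, 6.37 and 6.09 at 48 h and 6.39 to 6.72 with the oncogene on, so that all 4 arrays at 48 h lay below every other array. Cdk1, the kinase that drives entry into mitosis, lay at 7.45, 7.07, 7.62 and 7.27 at 24 h and at 5.95, 6.2, 6.30 and 5.82 at 48 h. It fell by 1.29 ± 0.16 (adjusted p = 0.000609), with -1.29 within the second BeadChip (adjusted p = 0.00822 with BeadChip in the model). Birc5 (survivin), a subunit of the chromosomal passenger complex, fell by 0.91 ± 0.15 (adjusted p = 0.00181). Anln, the anillin of the contractile ring, lay at 7.67 to 7.80 and 6.72 to 6.97 and fell by 0.87 ± 0.11 (adjusted p = 0.000737). Kif23, a kinesin of the central spindle, fell by 0.83 ± 0.22 (adjusted p = 0.0164). Top2a, the topoisomerase that untangles sister chromosomes, lay at 6.93, 6.6, 6.92 and 6.85 and at 5.71, 6.26, 5.92 and 6.09 and fell by 0.83 ± 0.15 (adjusted p = 0.00259). With BeadChip in the model 12 of the 20 were called lower, and without 48 h replicates 2 and 4 also 12.

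The RefSeq promoter windows of these genes, from 250 bases before the annotated start to 50 after it on build GRCm38.p6, were searched for 5 motifs, 1 for each of 5 lists. The letters TTTGAA, those of the cell cycle homology region known from promoters of mitotic genes, stood on either strand in 13 of the 15 windows (86.7%) of the 14 called mitosis genes with a window, against 17.9% of all 32851 windows. All 4 mitosis genes that were not called also held them, so the letters did not separate called from uncalled members. The windows of the 4 genes with the largest falls are shown, chosen to show where these letters lie, with TTTGAA or its reverse complement in capitals. In Cdk1 the matches begin 71 and 15 bases before the start, in Anln 21 and 28 bases after it and in Kif23 2 bases after it, and Birc5 has none.
Cdk1 (chr10:69352863-69353162, minus strand): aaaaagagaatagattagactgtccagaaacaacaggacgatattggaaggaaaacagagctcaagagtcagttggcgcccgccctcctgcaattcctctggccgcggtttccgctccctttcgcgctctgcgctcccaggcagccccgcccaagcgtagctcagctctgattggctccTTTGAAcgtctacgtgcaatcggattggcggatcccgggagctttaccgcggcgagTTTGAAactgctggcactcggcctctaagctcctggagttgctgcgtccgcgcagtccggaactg
Birc5 (chr11:117848987-117849286, plus strand): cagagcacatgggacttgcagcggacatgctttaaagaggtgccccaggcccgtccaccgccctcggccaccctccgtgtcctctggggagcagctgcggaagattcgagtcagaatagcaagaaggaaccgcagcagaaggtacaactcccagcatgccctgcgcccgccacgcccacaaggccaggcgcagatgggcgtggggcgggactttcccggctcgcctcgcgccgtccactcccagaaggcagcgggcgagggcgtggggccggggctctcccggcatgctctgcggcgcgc
Anln (chr9:22389157-22389456, minus strand): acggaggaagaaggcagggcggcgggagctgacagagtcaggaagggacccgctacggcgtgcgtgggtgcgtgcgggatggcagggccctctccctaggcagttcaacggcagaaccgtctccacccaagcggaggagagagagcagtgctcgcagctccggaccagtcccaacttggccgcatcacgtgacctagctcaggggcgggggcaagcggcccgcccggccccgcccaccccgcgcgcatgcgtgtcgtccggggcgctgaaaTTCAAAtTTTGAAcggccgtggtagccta
Kif23 (chr9:61946750-61947049, minus strand): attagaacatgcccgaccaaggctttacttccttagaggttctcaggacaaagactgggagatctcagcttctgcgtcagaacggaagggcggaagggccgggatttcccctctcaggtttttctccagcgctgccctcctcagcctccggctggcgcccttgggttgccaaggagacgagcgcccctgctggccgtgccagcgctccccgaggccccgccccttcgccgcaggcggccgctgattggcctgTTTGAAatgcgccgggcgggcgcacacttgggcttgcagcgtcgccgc

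Genes of DNA replication also fell, with a median of -0.44. Of 28 tested, 15 were called lower (53.6%, beside 13.9% of all genes) and none higher (0 at an unadjusted p below 0.05). The count of 15 fell to 8 without 24 h replicate 1 and 9 without 24 h replicate 3 or 48 h replicate 1 or 4, and 5 were called lower with BeadChip in the model, as were 5 without 48 h replicates 2 and 4. Mcm3, a subunit of the replicative helicase, lay at 6.03, 5.76, 5.72 and 6.02 at 24 h and at 5.23, 5.16, 4.98 and 4.98 at 48 h, and it fell by 0.79 ± 0.11 (adjusted p = 0.000768). Its paralog Mcm6 fell by 0.88 ± 0.24 (adjusted p = 0.0191), a call lost without 24 h replicates 1 or 3 or 48 h replicate 1. Tyms, the thymidylate synthase, fell by 0.81 ± 0.15 (adjusted p = 0.00262), and Gins2, a helicase partner, fell by 0.79 ± 0.17 (adjusted p = 0.00665). For all 4 genes every value at 48 h lay below every value at 24 h.

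Of 10 cell cycle inhibitors and quiescence genes tested, 1 was called higher and 3 lower, and limma called none with BeadChip in the model (1 higher and 3 lower at an unadjusted p below 0.05). Cdkn1c, which encodes the inhibitor p57, rose by 0.79 ± 0.21 (adjusted p = 0.0162), from 9.38, 8.83, 9.06 and 9.45 to 9.91, 10.05, 9.51 and 10.40. The 4 values at 48 h lay above all others, and those with the oncogene on were 8.16 to 8.88. Rbl1, a relative of the retinoblastoma protein, fell by 0.60 ± 0.14 (adjusted p = 0.00903), and Cdkn2c fell by 0.46 ± 0.12 (adjusted p = 0.0147). Cdkn2b fell by 0.32 ± 0.10 (adjusted p = 0.0344), a call lost without 24 h replicates 1 or 4 or 48 h replicates 1 or 2 or 4. Cdkn1a, the p53-induced inhibitor p21, lay at 10.07, 10.32, 10.32 and 10.25 and 10.39, 10.17, 10.35 and 10.37 and did not pass the test (difference 0.08, adjusted p = 0.563). Of its dimmer probes, that at a mean of 8.04 was called higher (difference 0.36, adjusted p = 0.033), and that at 8.99 was not (difference 0.19, adjusted p = 0.205). Cyclin D1 (Ccnd1), which links growth signals to the cycle, lay at 11.96, 12.31, 12.23 and 12.02 at 24 h and at 11.43, 11.28, 12.14 and 11.25 at 48 h. It fell by 0.61 ± 0.18 (adjusted p = 0.0229), with 48 h replicate 3 inside the range of 24 h, and the call was lost without 24 h replicates 2 or 3 or 48 h replicates 1 or 2 or 4.

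Genes of cholesterol synthesis also fell. Of 16 genes tested 12 were called lower and none higher (0 at an unadjusted p below 0.05), with a median of -0.65, and 10 were called lower with BeadChip in the model and 12 without 48 h replicates 2 and 4. Leaving out any 1 of the 8 arrays gave 12 or 13. As a mean of the list, levels were 7.59, 7.74, 7.57 and 7.64 at 24 h and 6.85, 6.96, 6.99 and 6.90 at 48 h, with no overlap, and 7.18 to 7.66 with the oncogene on. Fdps, the farnesyl diphosphate synthase, lay at 9.89, 10.08, 9.98 and 9.83 at 24 h and at 8.31, 8.45, 8.52 and 8.34 at 48 h. It fell by 1.54 ± 0.17 (adjusted p = 0.000285), with -1.51 within the second BeadChip (adjusted p = 0.00517 with BeadChip in the model). Nsdhl fell by 1.17 ± 0.15 (adjusted p = 0.00073) and Msmo1 fell by 1.10 ± 0.14 (adjusted p = 0.000483); both remove methyl groups from sterol precursors. Stard4, a carrier of cholesterol, fell by 1.05 ± 0.22 (adjusted p = 0.0049). Srebf2, the transcription factor that controls this pathway, lay at 7.66 to 8.13 and 7.57 to 7.77 and did not pass the test (difference -0.21, adjusted p = 0.163). The letters TCACNCCAC, a form of the sterol regulatory element, stood in none of the 11 windows of the 9 called genes with a window, against 1.24% of all windows.

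Genes of fatty acid metabolism did not move one way. In synthesis 1 of 18 was called higher and 5 lower, the 1 became 4 without 48 h replicate 3, and the 5 became 3 without 24 h replicate 1 or 2 or 4 or 48 h replicate 2 or 4. Fitted with BeadChip, 1 was higher and 1 lower. The desaturase Fads2 fell by 0.75 ± 0.17 (adjusted p = 0.00711), its neighbour Fads1 fell by 0.55 ± 0.10 (adjusted p = 0.00246), and Lpin1, which makes diacylglycerol, fell by 0.55 ± 0.13 (adjusted p = 0.0106). Mlxipl, a carbohydrate-responsive transcription factor, rose by 0.88 ± 0.18 (adjusted p = 0.00437). Of 24 genes of uptake and oxidation, 5 were called higher and 4 lower. Once BeadChip was a term, 2 were higher and 1 lower. Ppargc1a, a coactivator of mitochondrial genes, lay at 5.76, 5.93, 5.84 and 5.44 at 24 h and at 6.94, 7.13, 6.71 and 7.05 at 48 h. It rose by 1.21 ± 0.15 (adjusted p = 0.000492), with 1.13 within the second BeadChip (adjusted p = 0.00866 with BeadChip in the model). Cpt1b, the muscle form of the carnitine transferase, rose by 1.67 ± 0.39 (adjusted p = 0.00963), with its highest value (8.0) on 48 h replicate 4 and a difference of 1.22 without 48 h replicates 2 and 4 (adjusted p = 0.0612). Fabp5, a fatty acid binding protein, fell by 1.24 ± 0.17 (adjusted p = 0.00097), and Acaa2, a thiolase of mitochondria, fell by 0.90 ± 0.17 (adjusted p = 0.00352).

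Phgdh, the first enzyme of serine synthesis, lay at 6.49, 6.09, 6.38 and 6.59 at 24 h and at 4.32, 4.86, 5.0 and 4.98 at 48 h, and it fell by 1.59 ± 0.17 (adjusted p = 0.000241), with -1.39 within the second BeadChip (adjusted p = 0.00436 with BeadChip in the model). Psat1, the second, fell by 1.31 ± 0.18 (adjusted p = 0.000768), with a range of 8.16 to 8.76 at 24 h and of 6.99 to 7.43 at 48 h, and lay at 8.88 to 9.69 with the oncogene on. Both belong to a list of 20 targets of the stress factor ATF4 and tRNA synthetases, in which 3 were called higher and 2 lower. Of the members, 2 were higher and 2 lower with BeadChip in the model. The stress proteins Sesn2 and Trib3 were among the higher: Sesn2 rose by 0.88 ± 0.16 (adjusted p = 0.00323), and Trib3 rose by 0.55 ± 0.17 (adjusted p = 0.0308), a call lost without 24 h replicates 1 or 4 or 48 h replicates 2 or 3. The 3 higher calls fell to 1 without 24 h replicate 1 or 4 or 48 h replicate 2 or 3. Of 13 glycolysis genes 4 were called lower and none higher (0 at an unadjusted p below 0.05). The 4 were 30.8% of the list, beside 13.9% of all genes called lower and 27.5% called in either direction. In the BeadChip model 1 was called, lower. Pfkp, a phosphofructokinase, fell by 1.02 ± 0.18 (adjusted p = 0.00259), Pgk1 fell by 0.65 ± 0.16 (adjusted p = 0.0127) and Pgam1 fell by 0.59 ± 0.14 (adjusted p = 0.00963). Gapdh fell by 0.50 ± 0.14 (adjusted p = 0.0193), and its call was lost without 48 h replicates 1 or 2. In oxidative phosphorylation 1 of 30 was called, lower, and the 1 became 7 without 48 h replicate 4, 3 without 24 h replicate 4 and 0 without 24 h replicate 1 or 3 or 48 h replicate 1 or 2 or 3. Among cytosolic ribosomal proteins 3 of 23 were called lower (5 without 48 h replicate 3). Limma called none of either list with BeadChip in the model (0 and 2 lower at an unadjusted p below 0.05).

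ERK target genes, which follow signalling from such oncogenes, differed among the arrays at 48 h. The mean level of the 17 tested was 9.18 to 9.47 with the oncogene on, 8.2, 8.50, 8.11 and 8.09 at 24 h and 7.89, 7.94, 8.68 and 7.92 at 48 h. The 48 h replicate 3 lay above all arrays at 24 h, and the other 3 lay below them. Dusp6, the ERK phosphatase, lay at 11.42, 11.52, 11.33 and 10.94 at 24 h, 10.63, 10.87, 11.86 and 10.63 at 48 h and 12.29 to 12.76 with the oncogene on, and did not pass the test (difference -0.30, adjusted p = 0.368). The feedback inhibitor Spry4 and the ETS factor Etv4 did not pass either, with differences of 0.38 (adjusted p = 0.168) and 0.06 (adjusted p = 0.928). For Dusp6, Spry4 and Etv4 the highest of the 8 values was that of 48 h replicate 3. In all, 1 of the 17 was called higher and 4 lower, a share near that of all genes, and with BeadChip in the model 1 was called, lower. The 4 became 1 without 24 h replicate 3 or 48 h replicate 1 or 2 or 4 and 2 without 24 h replicate 1 or 2.

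Etv5, a second ETS factor and also a gene of type 2 cells, was called. It lay at 10.26, 10.35, 9.94 and 10.49 at 24 h, overlapping its range with the oncogene on (10.03 to 10.59), and at 8.98, 8.63, 9.69 and 8.57 at 48 h. It fell by 1.29 ± 0.22 (adjusted p = 0.00237), with -1.13 within the second BeadChip (adjusted p = 0.0358 with BeadChip in the model). Dusp5, a nuclear ERK phosphatase, lay at 8.0, 7.95, 8.0 and 7.98 and at 7.14, 6.54, 8.05 and 6.81, and it fell by 0.85 ± 0.25 (adjusted p = 0.0244). Hbegf, a ligand of the EGF receptor, fell by 0.72 ± 0.24 (adjusted p = 0.0454). For Dusp5 and Hbegf, 48 h replicate 3 lay inside or above the range of 24 h. The Dusp5 call was lost without 24 h replicates 1 or 3 or 48 h replicates 1 or 2 or 4, and the Hbegf call without 24 h replicates 1 or 2 or 3 or 4 or 48 h replicates 1 or 2 or 4. Egr1, an early response factor, rose by 1.42 ± 0.45 (adjusted p = 0.0355), from 10.02, 9.84, 10.02 and 9.93 to 10.27, 11.95, 10.37 and 12.90. It was highest in 48 h replicates 2 and 4, and the call was lost without 24 h replicates 1 or 2 or 3 or 4 or 48 h replicates 2 or 4.

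**Figure D3:**
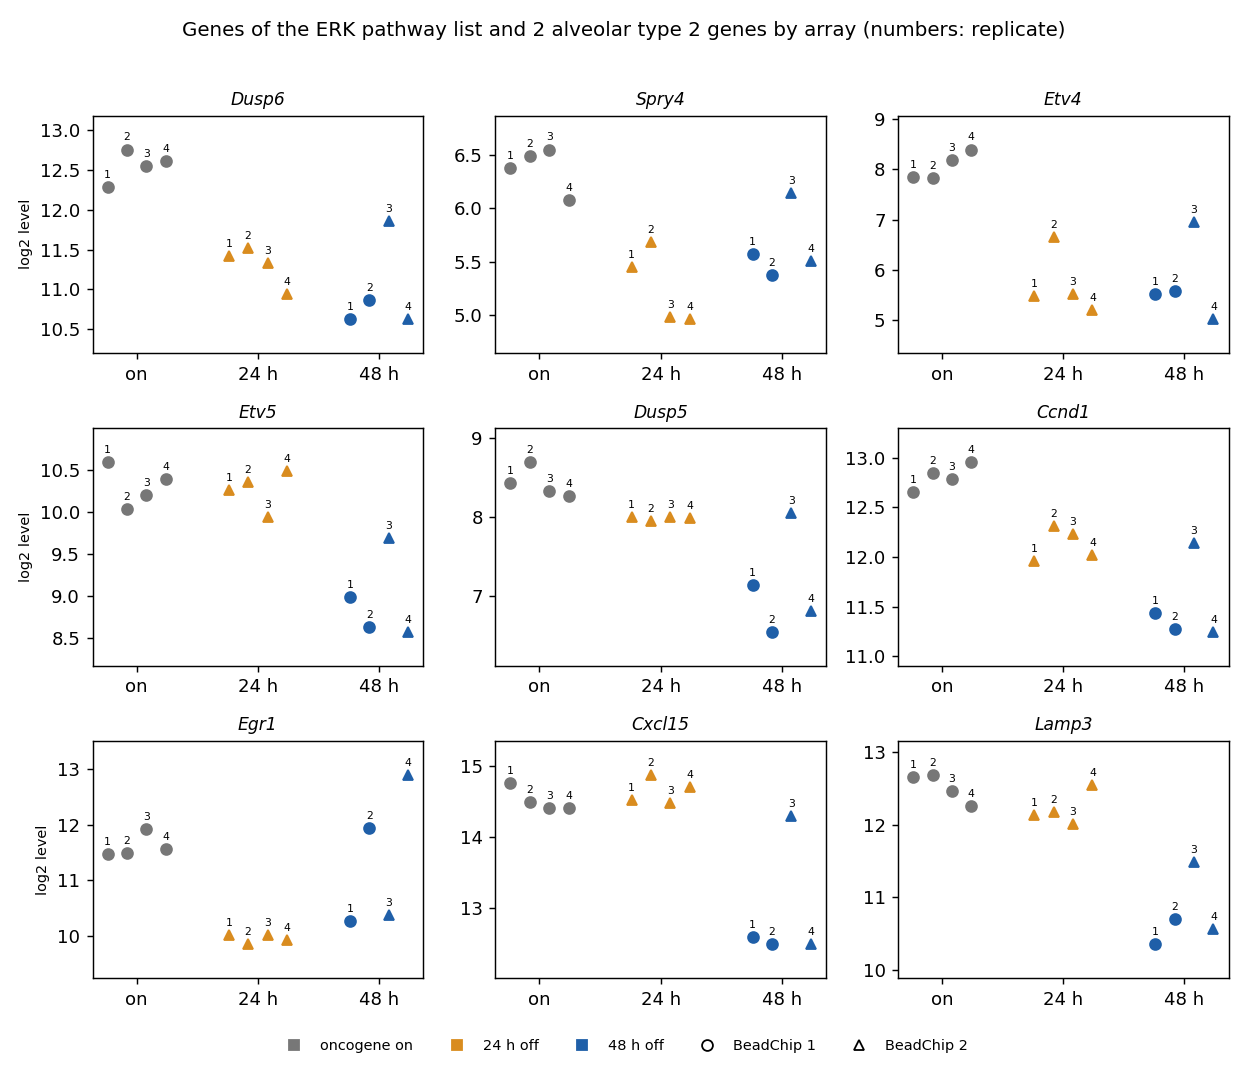
Log2 level (y axis) of 7 genes of the ERK pathway list and of the type 2 cell genes Cxcl15 and Lamp3 on every array, by group (x axis), with replicate numbers above the points and BeadChip as shape. In Dusp6, Spry4, Etv4, Etv5, Dusp5, Ccnd1, Cxcl15 and Lamp3, 48 h replicate 3 is the highest of the 4 arrays at 48 h, while Egr1 is highest in 48 h replicates 2 and 4.

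Of 15 immediate early genes, which respond to growth factors and to stress within minutes, 4 were called higher and 1 lower, and without 48 h replicate 3 the 4 became 8. The share called in the main fit was 33.3%, beside 27.5% of all genes. Under the model with BeadChip, 3 were called higher. Nr4a2, a nuclear receptor, lay at 5.07, 4.78, 4.90 and 4.72 at 24 h and at 6.12, 5.62, 6.0 and 6.07 at 48 h and rose by 1.08 ± 0.16 (adjusted p = 0.00122). Jund, a subunit of the AP-1 factor, rose by 1.05 ± 0.14 (adjusted p = 0.000767), with a range of 6.64 to 6.99 at 24 h and of 7.61 to 8.17 at 48 h. Egr2 went the other way and fell by 0.97 ± 0.25 (adjusted p = 0.0149). Fos, the best known of them, lay at 8.22, 10.01, 8.34 and 10.89 at 48 h against 8.39 to 8.54 at 24 h and did not pass the test (difference 0.90, adjusted p = 0.162). As with Egr1, its high arrays were 48 h replicates 2 and 4.

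Receptor tyrosine kinases and their ligands were called in 14 of 27, 5 higher and 9 lower, beside 27.5% of all genes. The 9 became 5 without 24 h replicate 1 or 4 or 48 h replicate 2. Fitted with BeadChip, 2 were higher and 1 lower. The growth factor Igf1 fell by 0.95 ± 0.25 (adjusted p = 0.0162), and its call was lost without 48 h replicate 2. The stem cell factor receptor Kit fell by 0.91 ± 0.23 (adjusted p = 0.0134), and the hepatocyte growth factor receptor Met fell by 0.80 ± 0.21 (adjusted p = 0.015), with a range of 5.98 to 6.92 at 24 h and of 5.35 to 5.65 at 48 h. Pdgfra, a receptor of fibroblasts, fell by 0.79 ± 0.26 (adjusted p = 0.0402), a call lost without 24 h replicates 1 or 4 or 48 h replicates 1 or 2 or 3. Among 21 components of the pathway upstream of ERK, 4 were called higher and 1 lower, and the 1 became 3 without 48 h replicate 4. None of the 21 was called with BeadChip in the model (4 higher and 1 lower at an unadjusted p below 0.05). The GTPase-activating proteins Rasa1 and Nf1 rose by 0.54 ± 0.11 (adjusted p = 0.00403) and 0.53 ± 0.14 (adjusted p = 0.015). The PI3-kinase subunit Pik3r1 rose by 0.57 ± 0.15 (adjusted p = 0.0145), and Rassf5, an effector that is not a kinase, fell by 0.49 ± 0.10 (adjusted p = 0.00574). Values of Rasa1 with the oncogene on (10.63 to 10.87) were like those at 48 h (10.52 to 10.95).

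Part of the heat shock genes rose. Of 14 tested, 7 were called higher and none lower (0 at an unadjusted p below 0.05), with a median of 0.61, and the 7 became 4 without 24 h replicate 2 or 3 or 48 h replicate 2 or 4. Once BeadChip was a term, 2 were called higher, and without 48 h replicates 2 and 4 also 2, with a median of 0.38. Hspa1a is described above. Dnajb1, its cochaperone, lay at 10.52, 10.21, 10.27 and 10.21 at 24 h and at 10.82, 12.12, 11.33 and 12.02 at 48 h. It rose by 1.27 ± 0.24 (adjusted p = 0.00329), with 1.37 within the second BeadChip (adjusted p = 0.0272 with BeadChip in the model), and 0.77 without 48 h replicates 2 and 4 (adjusted p = 0.0166). Hsph1 rose by 1.21 ± 0.38 (adjusted p = 0.0328), and the call was lost without 24 h replicates 1 or 2 or 3 or 48 h replicates 2 or 4. Hspa4l rose by 0.95 ± 0.24 (adjusted p = 0.0122), and unlike the others it was highest on 48 h replicate 3, at 7.83. The list's mean level was 9.0, 9.79, 9.39 and 9.64 at 48 h, 8.91, 8.51, 8.81 and 8.87 at 24 h and 8.77 to 9.30 with the oncogene on. The highest 2 arrays were those with muscle transcripts, whose part in the rises was not tested beyond leaving them out.

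The letters GAANNTTC, a pair of facing heat shock element units, stood in 5 of the 8 windows (62.5%) of the 6 called heat shock genes with a window, against 7.86% of all windows, and in all 6 genes that were not called. The window of Hspa1a, the largest rise, is shown with its match, which begins 104 bases before the start, in capitals.
Hspa1a (chr17:34972107-34972406, minus strand): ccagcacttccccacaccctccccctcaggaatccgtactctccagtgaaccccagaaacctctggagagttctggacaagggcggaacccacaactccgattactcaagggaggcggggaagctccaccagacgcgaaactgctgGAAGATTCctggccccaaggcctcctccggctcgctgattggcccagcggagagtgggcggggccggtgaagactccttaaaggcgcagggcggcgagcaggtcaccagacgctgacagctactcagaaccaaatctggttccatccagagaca

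Chaperones of the endoplasmic reticulum were mixed. Of 18, 3 were called higher and 7 lower. The 7 became 3 without 48 h replicate 1 or 2 and 4 without 24 h replicate 1 or 2, and the 3 became 0 without 24 h replicate 1 or 48 h replicate 1 or 2 and 1 without 24 h replicate 2 or 48 h replicate 4. Of the members, 1 was called, lower with BeadChip in the model. Sdf2l1 fell by 1.03 ± 0.22 (adjusted p = 0.00592), the calcium-binding chaperone Calr fell by 0.97 ± 0.23 (adjusted p = 0.00914) and Sec61b, a subunit of the translocation pore, fell by 0.63 ± 0.11 (adjusted p = 0.0027). Herpud1, which takes part in the degradation of misfolded proteins, rose by 0.68 ± 0.20 (adjusted p = 0.025), a call lost without 24 h replicate 1 or 48 h replicates 1 or 2 or 4.

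The mean level of clock genes was higher at 48 h on every array. By their labels the groups are a whole day apart, and the labels do not state an hour of the day. Of 13 tested, 4 were called higher and none lower (0 at an unadjusted p below 0.05), with a median of 0.40, and none was called with BeadChip in the limma model (6 higher at an unadjusted p below 0.05). The 4 were 30.8% of the list, beside 13.6% of all genes called higher and 27.5% called in either direction. Over the list, the mean level was 8.70, 8.79, 8.72 and 8.70 at 24 h and 9.11, 9.20, 9.10 and 9.11 at 48 h, with no overlap. Per2, a repressor of the clock, lay at 10.02, 10.07, 9.96 and 9.78 at 24 h and at 10.80, 11.09, 10.77 and 10.83 at 48 h and rose by 0.92 ± 0.21 (adjusted p = 0.00772). Per1 rose by 0.93 ± 0.22 (adjusted p = 0.00996) and Cry2 rose by 0.82 ± 0.16 (adjusted p = 0.0043); they too are clock repressors. Rora, an activator, rose by 0.30 ± 0.10 (adjusted p = 0.0495), a call lost without 24 h replicates 1 or 3 or 48 h replicates 1 or 2 or 3 or 4. Arntl, the core activator, did not pass the test (difference -0.28, adjusted p = 0.328). The letters CACGTG, the core of the E-box, stood in 1 of the 4 windows of the 3 called genes with a window, against 7.15% of all windows, and in 2 of 8 genes that were not called.

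Glucocorticoid-induced genes overlap with this list through Per1. Of 15, 5 were called higher and 2 lower, and the 5 became 3 without 24 h replicate 1 or 48 h replicate 2 and the 2 became 0 without 24 h replicate 2 or 48 h replicate 1; none was called with BeadChip in the model (4 higher and 1 lower at an unadjusted p below 0.05). In the main fit 46.7% of the list was called, beside 27.5% of all genes. Zbtb16, given above, rose most. Pdk4, a kinase that restrains pyruvate oxidation, rose by 0.95 ± 0.32 (adjusted p = 0.043), a call lost without 24 h replicates 1 or 2 or 3 or 4 or 48 h replicates 1 or 2 or 4. Lcn2, an iron-carrier protein of neutrophils and epithelium, fell by 1.08 ± 0.34 (adjusted p = 0.034), a call lost without 24 h replicates 2 or 3 or 48 h replicates 1 or 4. Of 20 targets of FOXO factors, which act when growth signals are withdrawn, 8 were called higher and 1 lower, with a median of 0.24. The share called was 45%, beside 27.5% of all genes, and the 8 became 5 without 24 h replicate 1. In the BeadChip model 3 were higher and 1 lower. Txnip, a thioredoxin-binding protein, lay at 13.36, 13.14, 13.43 and 13.42 and at 14.41, 14.35, 13.88 and 14.16 and rose by 0.86 ± 0.16 (adjusted p = 0.00358). The factor Klf15 rose by 0.73 ± 0.18 (adjusted p = 0.0119), and G6pc3, a glucose-6-phosphatase, fell by 0.75 ± 0.10 (adjusted p = 0.000768).

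In the BCL2 family of apoptosis regulators 1 of 16 was called higher and 2 lower (18.8%, beside 27.5% of all genes). Bmf, a killer protein of the BH3-only kind, lay at 8.57, 8.45, 8.46 and 8.54 at 24 h and at 9.28, 9.38, 9.20 and 8.84 at 48 h, and it rose by 0.67 ± 0.12 (adjusted p = 0.00255), with 0.52 within the second BeadChip (adjusted p = 0.0382 with BeadChip in the model). Bcl2l11, the BH3-only protein Bim, lay at 8.83, 8.56, 8.56 and 9.06 and 9.08, 9.32, 9.07 and 8.99 and missed the threshold (difference 0.36, adjusted p = 0.052). Its dimmer probes, at means of 7.17 and 4.72, were not called and went both ways (differences -0.16 and 0.10, adjusted p = 0.538 and 0.669). Bcl2a1b and Bcl2a1d, survival proteins of blood cells with near-identical sequences, fell by 0.96 ± 0.28 (adjusted p = 0.0239) and fell by 0.94 ± 0.31 (adjusted p = 0.0417). The first lost its call without 24 h replicates 3 or 4 or 48 h replicates 1 or 2, and the second without 24 h replicates 1 or 2 or 3 or 4 or 48 h replicates 1 or 2 or 4. Among 15 p53 targets 2 were called higher, Sesn2 and the p53 ligase Mdm2, which rose by 0.57 ± 0.12 (adjusted p = 0.00636), and 1 lower, the death receptor Fas, which fell by 0.65 ± 0.18 (adjusted p = 0.017). Of 15 caspases and executioner genes, 2 were called higher and 3 lower, and the 3 became 5 without 48 h replicate 4. With BeadChip in the model 1 was higher in the BCL2 list, 1 higher and 1 lower among p53 targets, and limma called none of the caspase list (1 higher and 4 lower at an unadjusted p below 0.05).

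Ciliated cell genes rose, most of all on the arrays that carried muscle transcripts. Of 12 tested, 8 were called higher and none lower (0 at an unadjusted p below 0.05), with a median of 1.07, and the 8 became 5 without 24 h replicate 3 or 48 h replicate 2 or 4. Under the model with BeadChip, 1 was called, and without 48 h replicates 2 and 4 there were 3. As a mean of the list, levels were 7.07, 7.15, 6.75 and 7.35 at 24 h and 7.94, 8.70, 7.34 and 8.72 at 48 h, so replicates 2 and 4 were highest and replicate 3 lay within 0.01 of the highest array at 24 h. Tekt1, a protein of ciliary microtubules, lay at 5.16, 5.40, 4.94 and 5.84 at 24 h and at 7.19, 7.96, 6.06 and 7.93 at 48 h, and it rose by 1.95 ± 0.44 (adjusted p = 0.0075). Ccdc113 rose by 1.83 ± 0.38 (adjusted p = 0.00513), and Rsph1, a radial spoke protein, rose by 1.66 ± 0.44 (adjusted p = 0.0156). Dnali1, a dynein light chain, rose by 1.46 ± 0.42 (adjusted p = 0.0217), a call lost without 24 h replicate 3 or 48 h replicates 2 or 4. The letters GTTGCC, part of the X-box bound by ciliary factors, stood in 4 of the 8 windows of the 6 called genes with a window, against 12.5% of all windows, and in 1 of 3 genes that were not called. The median without 48 h replicates 2 and 4 was 0.54, and the part of muscle or airway content in the rises was not tested.

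Of 10 club cell genes 2 were called, both higher, and the 2 became 5 without 48 h replicate 3 and 1 without 24 h replicate 1 or 2 or 3 or 48 h replicate 1 or 2 or 4. The median of 1.08 over the 4 and 4 arrays was 0.41 within the second BeadChip and 0.43 without 48 h replicates 2 and 4, and with BeadChip in the model 1 was called. Hp, haptoglobin, lay at 12.44, 12.55, 12.63 and 12.55 at 24 h and at 13.43, 13.54, 12.93 and 13.65 at 48 h and rose by 0.84 ± 0.14 (adjusted p = 0.00219), with 0.75 within the second BeadChip (adjusted p = 0.0336 with BeadChip in the model). Its other probes tested, at means of 11.59 and 11.35, were not called (differences 0.22 and 0.12, adjusted p = 0.505 and 0.739). Cyp2f2, a cytochrome of the airway, rose by 1.32 ± 0.40 (adjusted p = 0.0291), a call lost without 24 h replicates 1 or 2 or 3 or 48 h replicates 1 or 2 or 4. Scgb1a1, the most abundant product of these cells, had a difference of 0.10 (adjusted p = 0.538) at levels near the top of the scale.

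Macrophage genes fell. Of 12 alveolar macrophage genes tested, 8 were called lower and none higher (0 at an unadjusted p below 0.05), with a median of -1.04, and leaving out any 1 array gave 6 to 10. Fitted with BeadChip, 3 were called lower, and 7 without 48 h replicates 2 and 4. The list's mean level was 8.89, 8.85, 8.58 and 8.69 at 24 h, 7.74, 6.96, 7.85 and 7.78 at 48 h and 7.86 to 8.22 with the oncogene on. Car4, a carbonic anhydrase that vessels also express, lay at 9.97, 9.96, 9.30 and 9.76 at 24 h and at 7.59, 6.55, 8.24 and 7.45 at 48 h. It fell by 2.29 ± 0.30 (adjusted p = 0.000726), with -1.90 within the second BeadChip (adjusted p = 0.0108 with BeadChip in the model). Mrc1, the mannose receptor, fell by 1.64 ± 0.27 (adjusted p = 0.00202), from 10.46, 10.42, 10.32 and 10.64 to 9.14, 7.78, 9.30 and 9.06. Krt79 fell by 2.0 ± 0.42 (adjusted p = 0.00571), and Chil3, a chitinase-like secreted protein with close paralogs, fell by 1.96 ± 0.45 (adjusted p = 0.00873). In each of these 4 genes 48 h replicate 2 was the lowest array. Marco, a scavenger receptor, did not pass the test at low levels (difference -0.44, adjusted p = 0.261).

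In interstitial macrophages and monocytes, 10 of 17 genes were called lower and none higher (0 at an unadjusted p below 0.05), with a median of -0.63. Once BeadChip was a term, 5 were called lower, and without 48 h replicates 2 and 4 there were 8. Fcgr3, an activating antibody receptor, lay at 10.22, 10.04, 10.40 and 10.35 at 24 h and at 8.6, 8.16, 9.05 and 9.09 at 48 h, and it fell by 1.53 ± 0.19 (adjusted p = 0.000609), with -1.19 within the second BeadChip (adjusted p = 0.00616 with BeadChip in the model). Adgre1, the F4/80 antigen, fell by 1.28 ± 0.21 (adjusted p = 0.00186), and Csf1r, the receptor for the macrophage growth factor, fell by 1.07 ± 0.16 (adjusted p = 0.00129), from 9.02 to 9.30 to 7.70 to 8.52. Ace, which is also an endothelial enzyme, fell by 1.0 ± 0.16 (adjusted p = 0.0018). The complement gene C1qa did not follow and lay at 7.27 to 8.16 and 7.33 to 7.76 (difference -0.10, adjusted p = 0.721). The levels of Fcgr3, Adgre1, Csf1r and Ace at 48 h were near those with the oncogene on, at 8.87 to 9.43, 6.94 to 7.56, 7.83 to 8.23 and 8.13 to 8.38.

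Neutrophil genes fell as well, with 5 of 9 called lower and none higher (0 at an unadjusted p below 0.05) and a median of -0.93, and the 5 became 3 without 24 h replicate 2 or 48 h replicate 1. Of the members, 1 was called lower with BeadChip in the model. S100a8, a calcium-binding protein of neutrophil cytosol, lay at 8.59, 8.96, 8.59 and 10.05 at 24 h and at 5.67, 7.41, 6.11 and 7.27 at 48 h, and it fell by 2.43 ± 0.43 (adjusted p = 0.00248). Its partner S100a9 fell by 1.73 ± 0.36 (adjusted p = 0.00497), and Retnlg fell by 1.29 ± 0.37 (adjusted p = 0.0216), a call lost without 24 h replicate 2 or 48 h replicate 1. Of 27 chemokines and cytokines, 6 were called lower (22.2%, beside 13.9% of all genes) and none higher (0 at an unadjusted p below 0.05). Among all genes 27.5% were called in either direction. Ccl6, a chemokine of macrophages, lay at 9.6, 9.81, 9.83 and 9.82 at 24 h and at 7.07, 5.79, 7.48 and 6.89 at 48 h, and it fell by 2.96 ± 0.32 (adjusted p = 0.000252), with -2.58 within the second BeadChip (adjusted p = 0.00464 with BeadChip in the model). Of the 27, 3 were called lower with BeadChip in the model. Il18 fell by 1.93 ± 0.24 (adjusted p = 0.000497), with a range of 9.84 to 10.15 at 24 h and of 7.19 to 8.52 at 48 h, and Il1b fell by 1.05 ± 0.21 (adjusted p = 0.0047). In the MHC class II list 6 of 12 were called lower and none higher (0 at an unadjusted p below 0.05), with a median of -0.39. In the BeadChip model 2 were called lower. Ctss, the protease that trims the invariant chain, fell by 1.40 ± 0.22 (adjusted p = 0.0016), its transcriptional activator Ciita fell by 0.64 ± 0.15 (adjusted p = 0.0089) and the peptide loader H2-DMb2 fell by 0.61 ± 0.14 (adjusted p = 0.00769). Ifi30 fell by 0.62 ± 0.17 (adjusted p = 0.0193), a call lost without 24 h replicate 3 or 48 h replicates 1 or 2. The brightest probe of the invariant chain Cd74 did not pass (difference -0.25, adjusted p = 0.0694). Another of its probes, at a mean of 12.08, was called lower (difference -0.51, adjusted p = 0.00895). The remaining probe, at 14.13, was not called (difference -0.08, adjusted p = 0.584).

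Lymphocyte lists did not move together. Of 15 T and natural killer cell genes 1 was called higher and 2 lower, and the 2 became 4 without 24 h replicate 2. The adhesion molecule Cd2 fell by 1.35 ± 0.21 (adjusted p = 0.00162), while the T cell receptor subunit Cd3e lay at 6.88 to 8.14 and 6.33 to 8.15 (difference -0.21, adjusted p = 0.717). Klrd1, a natural killer receptor, fell by 0.87 ± 0.30 (adjusted p = 0.0464), a call lost without 24 h replicates 1 or 3 or 4 or 48 h replicates 1 or 2 or 3, and perforin (Prf1) rose by 0.50 ± 0.11 (adjusted p = 0.00686). Of 8 B and plasma cell genes, Mzb1, a chaperone of plasma cells, rose by 1.84 ± 0.51 (adjusted p = 0.0192) with overlapping groups, a call lost without 48 h replicate 2, and Cd22 fell by 0.85 ± 0.15 (adjusted p = 0.00231). The B cell receptor subunit Cd79b had a difference of -0.13 (adjusted p = 0.722). With BeadChip in the model 1 gene of each of these lists was called, lower.

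Part of the vessel genes fell. Of 24 endothelial genes tested, 11 were called lower and none higher (0 at an unadjusted p below 0.05), with a median of -0.45, and the 11 became 4 without 24 h replicate 1, 5 without 24 h replicate 4 and 6 without 48 h replicate 1 or 2 or 3. Under the model with BeadChip, 6 were called lower. Over the list, the mean level was 9.78, 9.32, 9.31 and 9.82 at 24 h, 9.04, 8.92, 8.96 and 9.13 at 48 h and 8.43 to 8.73 with the oncogene on. Tmem100, a membrane protein of lung endothelium, lay at 10.57, 9.76, 9.61 and 10.49 at 24 h and at 7.26, 6.56, 7.15 and 8.11 at 48 h, and it fell by 2.84 ± 0.30 (adjusted p = 0.000241), with -2.48 within the second BeadChip (adjusted p = 0.00436 with BeadChip in the model). Tek, the angiopoietin receptor, fell by 1.2 ± 0.23 (adjusted p = 0.00338), and Calcrl, a receptor subunit for adrenomedullin, fell by 1.19 ± 0.17 (adjusted p = 0.000962).

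Of 20 fibroblast genes, 9 were called lower and none higher (0 at an unadjusted p below 0.05), with a median of -0.53. The 9 became 4 without 24 h replicate 1 or 48 h replicate 1 and 5 without 48 h replicate 2 or 3, and with BeadChip in the model there were 2. Without 48 h replicates 2 and 4 the median was -0.97. The list's mean level was 7.94 to 8.35 at 24 h, 7.10 to 8.05 at 48 h and 6.76 to 7.17 with the oncogene on. The ranges at 24 h and 48 h thus overlapped. Tcf21, a transcription factor of lung mesenchyme, lay at 8.69, 8.02, 7.35 and 8.50 at 24 h and at 5.84, 5.12, 5.88 and 6.25 at 48 h, and it fell by 2.37 ± 0.36 (adjusted p = 0.00135), with -2.08 within the second BeadChip (adjusted p = 0.0235 with BeadChip in the model). Mfap4, a protein of elastic fibres, fell by 2.10 ± 0.32 (adjusted p = 0.00135), Gsn (gelsolin) fell by 1.94 ± 0.46 (adjusted p = 0.00959), and Inmt, an indole methyltransferase, fell by 1.66 ± 0.42 (adjusted p = 0.0135). Type I collagen did not follow: Col1a1 lay at 9.61 to 10.02 and 9.29 to 10.0 (difference -0.20, adjusted p = 0.465). Of 24 matrix genes 7 were called lower and none higher (1 at an unadjusted p below 0.05), and the 7 became 3 without 48 h replicate 2, 4 without 24 h replicate 3 or 4 or 48 h replicate 1 and 12 without 48 h replicate 4. In the main fit the 7 were 29.2% of the list, beside 13.9% of all genes called lower and 27.5% called in either direction. Fitted with BeadChip, 1 was called lower, and without 48 h replicates 2 and 4 there were 7. Fibronectin (Fn1) fell by 1.70 ± 0.31 (adjusted p = 0.0027), from 9.88, 10.41, 9.90 and 10.13 to 8.13, 7.55, 8.65 and 9.20. The crosslinking enzyme Lox fell by 1.17 ± 0.22 (adjusted p = 0.00354), Col6a1 fell by 1.0 ± 0.23 (adjusted p = 0.00891), and Col3a1 fell by 0.91 ± 0.28 (adjusted p = 0.0293), a call lost without 24 h replicates 1 or 3 or 48 h replicates 1 or 2 or 3.

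Mesothelial genes, which mark the lung's outer lining, were called lower in 4 of 8 and higher in none (1 at an unadjusted p below 0.05), with a median of -0.46. Once BeadChip was a term, 3 were called lower. Without 48 h replicate 3 the count of higher genes was 2 in place of 0. Upk3b, a uroplakin, lay at 7.29, 6.74, 6.52 and 7.45 at 24 h and at 6.03, 4.52, 4.83 and 5.44 at 48 h, and it fell by 1.79 ± 0.31 (adjusted p = 0.00246). Upk1b fell by 1.12 ± 0.18 (adjusted p = 0.00169), Gpm6a fell by 0.82 ± 0.16 (adjusted p = 0.00344) and the keratin Krt19, which epithelium also makes, fell by 0.44 ± 0.11 (adjusted p = 0.0149). Among 13 smooth muscle and pericyte genes 2 were called higher and 1 lower, the 2 became 4 without 48 h replicate 3 and 1 with BeadChip in the model, and the actin Acta2 did not pass (difference 0.29, adjusted p = 0.392). The other Acta2 probes tested were not called either and went both ways, with differences of 0.39, -0.87 and -0.73 (adjusted p = 0.26, 0.0874 and 0.125). Erythroid genes, which mark red blood cells, were also tested. Of 8, 5 were called lower and none higher (1 at an unadjusted p below 0.05), with a median of -1.65. Of the members, 2 were called lower with BeadChip in the model. The globin Hba-a1 fell by 2.63 ± 0.48 (adjusted p = 0.00275) and Hbb-bt fell by 2.69 ± 0.48 (adjusted p = 0.0027), while Hbb-bs fell by 2.45 ± 0.48 (adjusted p = 0.00398) and Hbb-b2 fell by 1.89 ± 0.38 (adjusted p = 0.00472). Their transcripts are near-identical and may share signal. Hba-a1 lay at 13.55, 12.29, 13.36 and 12.58 at 24 h, 9.33, 10.46, 9.63 and 11.85 at 48 h and 10.65 to 11.47 with the oncogene on. The part of blood content in the falls of leukocyte and endothelial genes was not tested.

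**Figure D4:**
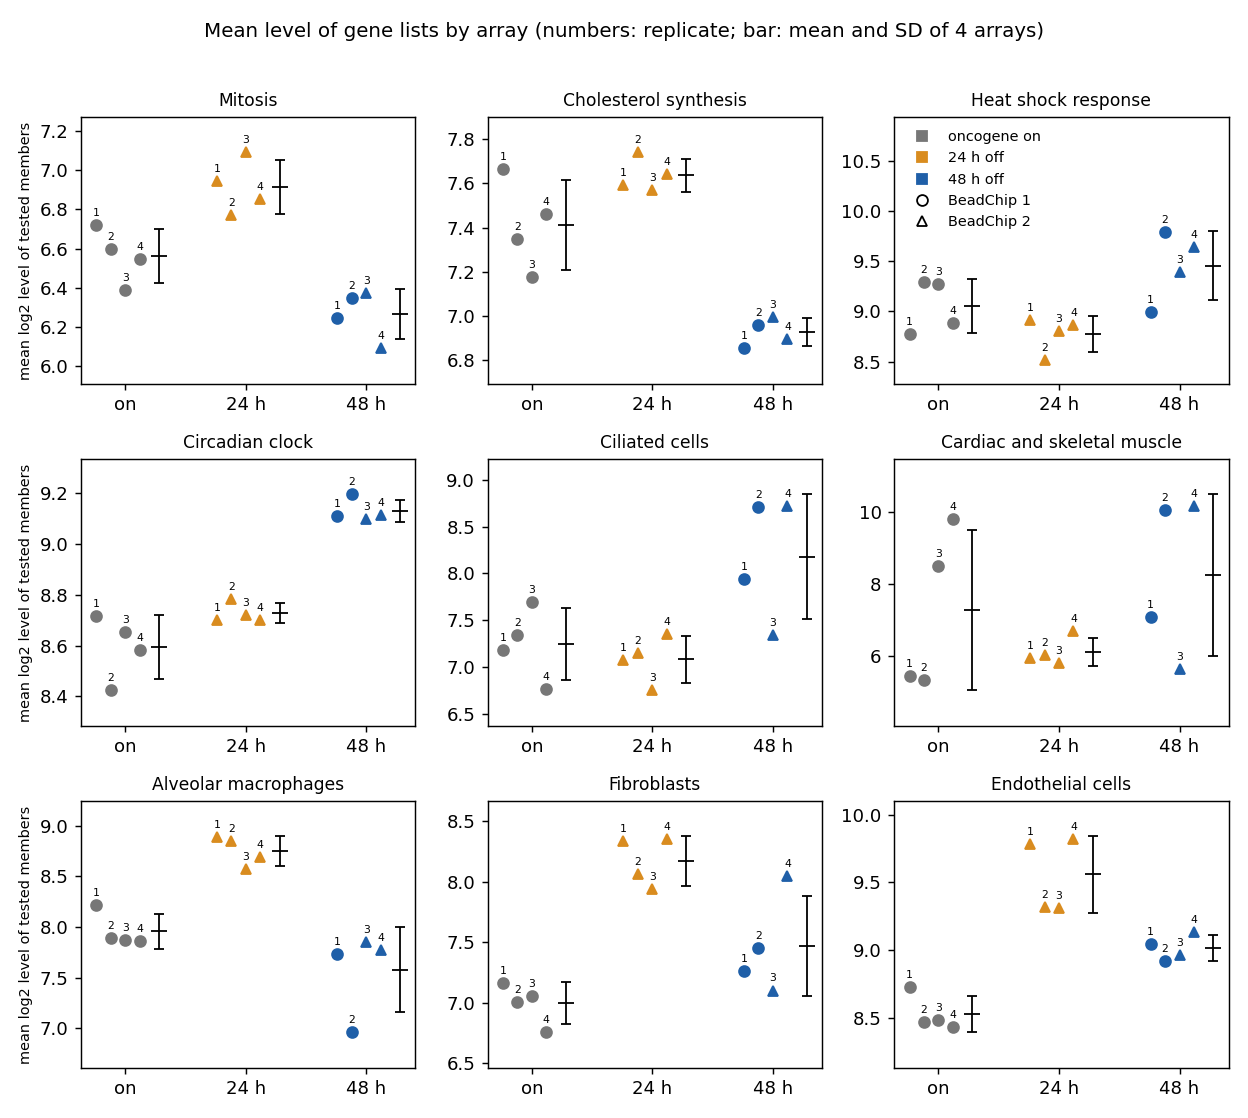
Mean log2 level of the tested members of 9 gene lists (y axis) on every array, by group (x axis), with replicate numbers above the points, BeadChip as shape, and the mean and SD of 4 arrays as bars. Mitosis, cholesterol synthesis, alveolar macrophage and endothelial genes are lower on all 4 arrays at 48 h than on all 4 at 24 h. Clock and heat shock genes are higher on all 4, and muscle and ciliated cell genes are highest in 48 h replicates 2 and 4.

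Part of the type 2 cell genes fell. Of 18 type 2 cell genes, 5 were called lower and none higher (1 at an unadjusted p below 0.05), against a background of 13.9%, and the median was -0.16 (-0.26 within the second BeadChip). The named falls were in secreted or vesicle proteins and in Etv5. In the BeadChip model 2 were called lower. Cxcl15 (lungkine), a chemokine of lung epithelium, lay at 14.52, 14.87, 14.47 and 14.70 at 24 h and at 12.60, 12.49, 14.29 and 12.49 at 48 h, and at 14.41 to 14.75 with the oncogene on. It fell by 1.67 ± 0.33 (adjusted p = 0.00396), with -1.25 within the second BeadChip (adjusted p = 0.0591 with BeadChip in the model). At 48 h, replicate 3 was the only array near the levels of 24 h. Lamp3, a protein of lamellar bodies, lay at 12.13, 12.18, 12.01 and 12.54 and at 10.35, 10.70, 11.48 and 10.57 and fell by 1.44 ± 0.21 (adjusted p = 0.00122). Surfactant protein B (Sftpb) fell by 0.67 ± 0.13 (adjusted p = 0.00431), again with replicate 3 the highest of the 48 h arrays. Of 16 type 1 cell genes, 2 were called higher and 2 lower, and 1 was lower with BeadChip in the model. Igfbp2, which binds insulin-like growth factors, fell by 1.15 ± 0.15 (adjusted p = 0.000705), and caveolin Cav1, which vessels share, fell by 0.93 ± 0.19 (adjusted p = 0.00513). The vessel growth factor Vegfa rose by 0.60 ± 0.12 (adjusted p = 0.00398), and Gprc5a rose by 0.58 ± 0.17 (adjusted p = 0.026), a call lost without 24 h replicates 1 or 3 or 48 h replicates 1 or 2.

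The other lists are given for their named members. Some were called in both directions, and others in 1 direction only or at shares below that of all genes. MHC class I and proteasome genes were called only lower, 25% of each list beside 13.9% of all genes. In autophagy and lysosome genes, 6 higher and 5 lower of 30 were called, and the 6 became 2 without 48 h replicate 1 and 3 without 24 h replicate 3. With BeadChip in the model 1 was higher and none lower (6 lower at an unadjusted p below 0.05 in limma's test). Ulk1, the kinase that starts autophagy, rose by 0.67 ± 0.13 (adjusted p = 0.00322), while the lysosomal protease Ctsl fell by 0.83 ± 0.19 (adjusted p = 0.00939). Atg3, an enzyme that attaches lipid to autophagy proteins, fell by 2.14 ± 0.56 (adjusted p = 0.0149), from 8.16, 7.93, 6.24 and 8.10 to 5.29, 5.43, 5.86 and 5.31. In the hypoxia response (1 higher and 4 lower of 15, the 4 becoming 2 without 48 h replicate 2), Plin2, a lipid droplet protein, fell by 1.44 ± 0.28 (adjusted p = 0.00367), and lay at 8.89 to 9.68 at 24 h and 7.28 to 8.43 at 48 h. Among Wnt and Notch targets (4 higher and 1 lower of 15), Nkd1, a Wnt antagonist, rose by 0.95 ± 0.13 (adjusted p = 0.000767), with 0.77 within the second BeadChip (adjusted p = 0.00995 with BeadChip in the model). In the list of NF-kappaB feedback genes (1 higher and 0 lower of 15) the called gene was Traf1, an adaptor of TNF receptors, which lay at 9.54, 9.39, 9.58 and 9.56 at 24 h and at 10.61, 11.03, 10.48 and 10.66 at 48 h and rose by 1.18 ± 0.12 (adjusted p = 0.000241). In the model with BeadChip 1 gene was called in each of the last 3 lists, lower in hypoxia and higher in the other two.

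Of matrix proteases and their inhibitors (1 higher and 3 lower of 18), Mmp2, a gelatinase, fell by 1.15 ± 0.23 (adjusted p = 0.00447). Their 3 became 1 without 24 h replicate 3 or 48 h replicate 1 or 2, their 1 became 0 without 24 h replicate 1 or 2 or 3 or 48 h replicate 1 or 2 or 4, and limma called none with BeadChip in the model (1 higher and 2 lower at an unadjusted p below 0.05). In MHC class I presentation (0 higher and 4 lower of 16), the proteasome activator Psme2 fell by 0.70 ± 0.11 (adjusted p = 0.00171) and the peptide-loading protein Tapbp fell by 0.82 ± 0.21 (adjusted p = 0.0146); the 4 became 7 without 48 h replicate 4 and 1 with BeadChip in the model. Proteasome subunits (0 higher and 5 lower of 20) included Psmd14, which fell by 0.59 ± 0.13 (adjusted p = 0.00788). Their 5 became 2 without 24 h replicate 3 or 48 h replicate 1 or 2 and 3 without 24 h replicate 1 or 2 or 4 or 48 h replicate 4, and limma called none with BeadChip in the model (3 lower at an unadjusted p below 0.05). The interferon-stimulated genes (1 higher and 3 lower of 24) included Ifit3, which fell by 0.86 ± 0.25 (adjusted p = 0.026), a call lost without 24 h replicates 1 or 3 or 4, and the 3 became 0 without 24 h replicate 4, 1 without 24 h replicate 1 or 48 h replicate 2 and 5 without 24 h replicate 2; with BeadChip in the model 2 were lower. Ddc, an enzyme of amine synthesis that marks neuroendocrine cells, fell by 1.03 ± 0.16 (adjusted p = 0.00147), and was the one called of 5 such genes tested, with BeadChip in the model too. In the remaining lists the calls were 3 higher and 3 lower of 23 in ribosome biogenesis, 2 higher and 2 lower of 18 in pentose phosphate and nucleotide synthesis, 1 higher and 1 lower of 12 in hexosamine synthesis, 1 higher and 0 lower of 13 among NRF2 targets, 1 higher and 3 lower of 10 among YAP targets, 1 higher and 1 lower of 14 among gastric and embryonic lineage genes and 1 higher and 0 lower of 9 among dendritic cell genes. Leaving out 1 array moved the higher count of NRF2 targets to 4 (48 h replicate 1) and 3 (48 h replicate 3), that of pentose phosphate genes to 0 (48 h replicate 2) and the lower count of gastric and embryonic lineage genes to 3 (48 h replicate 3). With BeadChip in the model 1 was higher in ribosome biogenesis, 1 was lower among YAP targets and 1 was higher among dendritic cell genes. In the other 4 limma called none there (3 higher and 0 lower among NRF2 targets at an unadjusted p below 0.05, 2 and 2 for pentose phosphate, and 1 and 1 for hexosamine and for lineage genes). Mast cell, platelet, adipocyte and sex-linked lists had 3, 5, 2 and 2 members tested, of which 1 was called, Kit of mast cells.

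**Figure D5:**
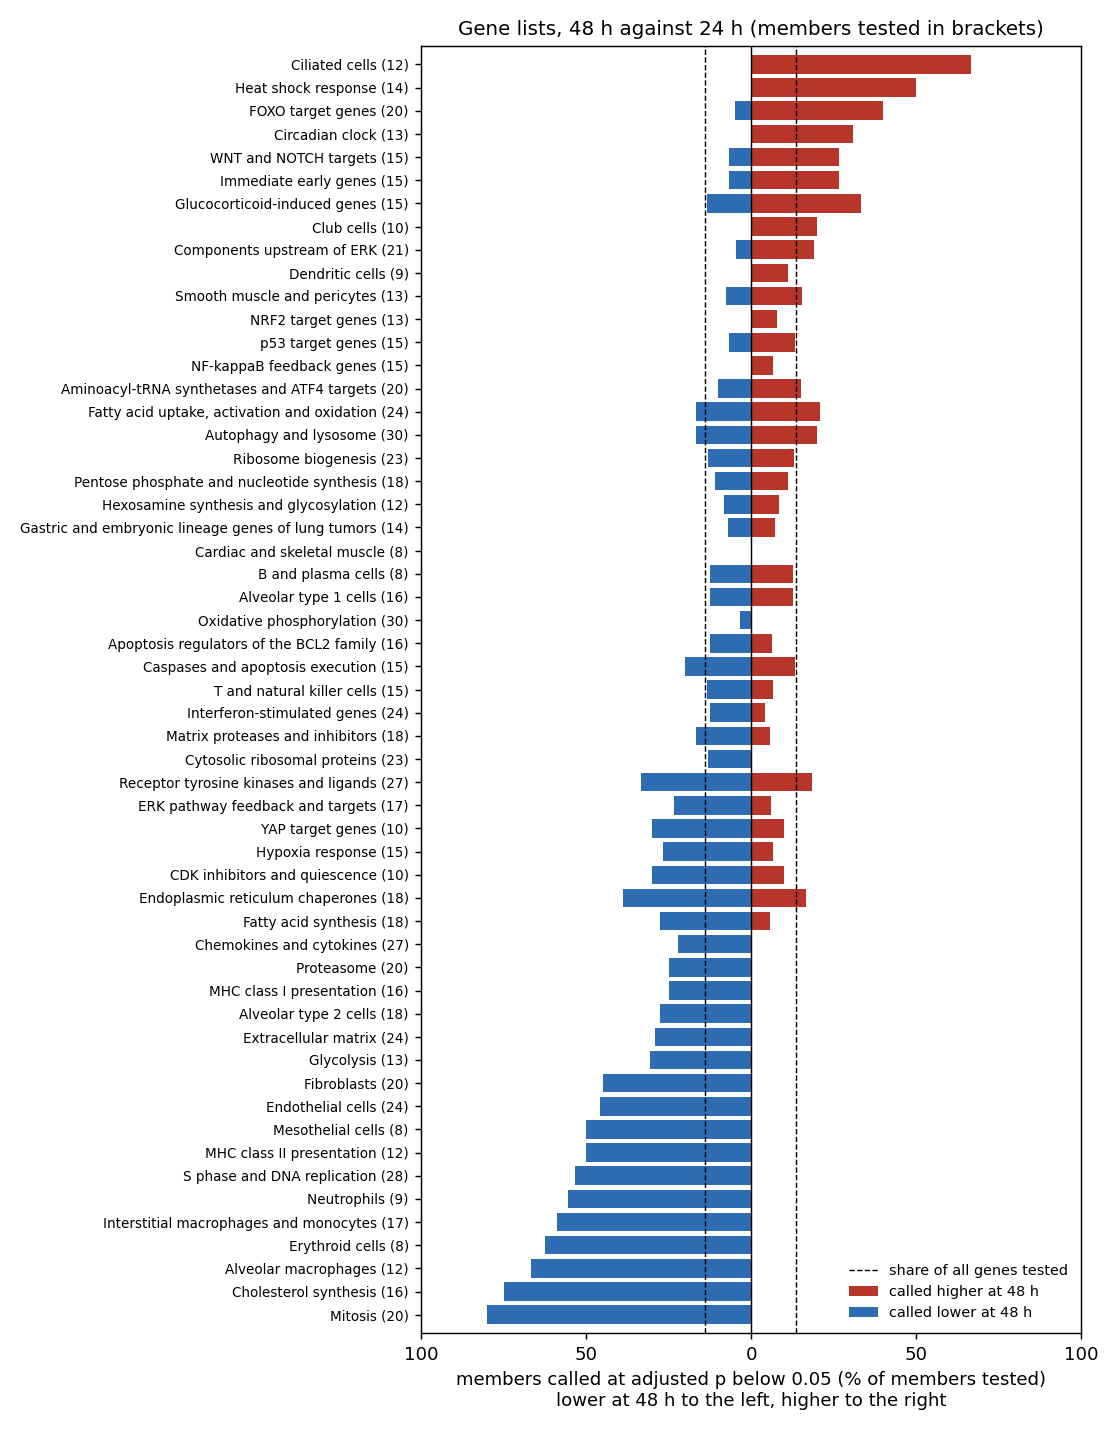
Share of the tested members of each gene list that were called lower (left) or higher (right) at 48 h, in percent (x axis), for lists with at least 8 members tested; dashed lines mark the shares of all genes tested, 13.9% lower and 13.6% higher. Mitosis, cholesterol synthesis and alveolar macrophages lie at the lower end, and ciliated cells and the heat shock response at the upper end.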

How the data were processed

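Total RNA of microdissected mouse lung tumors was measured on 12 arrays of 2 Illumina BeadChips with 6 arrays each, of which 8 enter the comparison of 48 h (4 arrays) with 24 h (4 arrays) and the 4 arrays with the oncogene on share the fit. The deposited scanner table gives, per the file headers, a mean bead intensity per probe and array on a linear scale, not normalised, with a detection p-value, the standard error over beads and the number of beads. The authors' value table, used as an alternative, holds log2 values that were log2-transformed a second time; this was found by setting each column against the deposited intensities (lowest rank correlation 0.999994; column median 2.08). The software and the normalisation behind these tables are not given in the sources used here. Both tables covered 45281 probes; 24 columns of the scanner table (numbers of arrays, SD over arrays) were not used.

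From the deposited intensity values, background was corrected with the detection p-values (neqc, offset 16) and arrays were quantile-normalised in limma 3.58.1 (R 4.3.3). A model with 3 groups was fitted, and Benjamini-Hochberg adjustment ran over the 20294 probes tested. GEO's platform annotation named 1 gene for 34885 probes, several for 18 and none for 10378. A gene was represented by its tested probe with the highest mean over the 8 arrays. Of 3032 called genes, 1241 had several tested probes, another probe was called the same way in 665, and one was called the opposite way in 50. Where a group's 4 arrays all lacked detection, only a bound is given. Such genes passed the filter through the other group alone, 38 through 24 h and 27 through 48 h.

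The members and the 60 gene lists were chosen with earlier results of these data known. Named genes were the 12 largest rises and the 12 largest falls without overlap, up to 4 called members of each list described, members that define a list and did not pass, and a fixed set (Sftpc, Scgb1a1, Ager, Top2a, Cdkn1a, Bcl2l11, Dusp6, Spry4, Etv4, Etv5, Ccnd1 and Xist, with Mki67 and Hmgcs1, which had no named probe tested). The lists are described by counts and medians, without a set test. The number of arrays limits the precision. Promoter sequences are from RefSeq. The calling step was tested on simulated data, and figures were drawn with matplotlib 3.10.9. Alternatives covered background, scaling, probe filters, BeadChip, replicate number, array weights, prior, fold minimum and leaving out arrays. The sample titles and source names hold no replicate number, and the numbers used here follow the order of the arrays within each group. Same-numbered samples deviated together with correlations of 0.04, 0.12, -0.07 and 0.22, so the numbers were not treated as pairs. The oncogene itself and some further results are not reported here.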

Additional observations from a re-analysis of the deposited data

Results flagged for a closer look

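In 26 of 476 groups of 4 arrays, 1 array stood so far from the other 3 that its gap passed Dixon's limit; chance alone flags about 1 group in 20. All values are log2 levels, for genes or for the mean of a gene list.

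At 48 h, replicate 3 was apart for the ERK pathway list (8.68, the others 7.89 to 7.94), for the type 2 cell chemokine Cxcl15 (14.29 against 12.49 to 12.60), for the chaperone Hspa4l (7.83 against 6.61 to 6.74) and for Amy2a5 (7.42 against 8.42 to 8.47). Replicate 2 was low for the alveolar macrophage list (6.96 against 7.74 to 7.85), for Mrc1 (7.78 against 9.06 to 9.30) and for Adgre1 (6.66 against 7.53 to 7.70), and its clock list was high (9.20 against 9.10 to 9.11). Replicate 4 was high for Col3a1 (8.79 against 7.46 to 7.58), Cd2 (6.92 against 6.10 to 6.14), Fads2 (6.04 against 5.60 to 5.67) and the dendritic cell list (6.82 against 6.36 to 6.41), and low for the S phase list (6.25 against 6.45 to 6.48).

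At 24 h, replicate 4 was apart for Xist (4.2 against 10.48 to 10.79) and with it for the sex-linked list (5.04 against 7.78 to 8.07). Replicate 3 was low for Ear10 (7.62 against 10.09 to 10.35), Chil4 (12.35 against 13.10 to 13.13), Atg3 (6.24 against 7.93 to 8.16), Calr (8.90 against 9.40 to 9.49), Rasa1 (10.07 against 10.18 to 10.20) and Sftpb (14.58 against 14.66 to 14.68), and high for the B and plasma cell list (8.01 against 6.76 to 6.89). Replicate 2 was low for Arntl (5.81 against 6.21 to 6.29) and high for Col1a1 (10.02 against 9.61 to 9.68) and the matrix protease list (8.17 against 7.98 to 8.01). Replicate 1 was low for Ccl6 (9.6 against 9.81 to 9.83).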

How the results depend on the processing

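The number of called genes (3032) and called probes (5702) stayed within 1.5 times of these values under the background, scaling, probe filter, prior, array weight and random BeadChip alternatives, from 2420 genes without a probe filter to 3687 with array weights. It moved further with BeadChip as a fixed term (721 genes and 1344 probes), within the second BeadChip (257 genes and 448 probes), with a minimum fold of 1.2 (634 genes and 1261 probes) and with 48 h replicates 2 and 4 left out (1756 genes and 3356 probes). Fewer arrays bear on the difference in these comparisons, 2 against 4 with BeadChip as a fixed term or within the second BeadChip, except with the minimum fold, which asks for more than a nonzero difference. Over the 3032 called genes, the median standard error was 0.14 in the main fit and 0.16 with BeadChip fixed. Their median size was 0.56 and 0.48. The part of each in the lower counts was not tested. Leaving out 1 array at a time gave 1987 to 3079 genes and 3768 to 5894 probes, lowest without 48 h replicate 2. With replicate number as a block, 2506 genes and 4772 probes were called, and 151 of the 156 called genes named above kept their call; only replicate 4 correlated best with its own number. The share of calls that were higher was 47% to 51.3% under the scalings against 49.4%, and the median of all genes shifted to at most 0.05. No called gene named above changed sign under any alternative run. These genes were picked on the same arrays, most of which each alternative reuses, so a kept sign adds little support. With BeadChip fixed 72 of the 156 kept their call, and without 48 h replicates 2 and 4 112 did. The low signal of probes near background limits the size of folds there.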
